A study of Sus scrofa with 12 samples.

Results

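The genes described here are the transcription factor genes that set position and cell identity in the embryo, measured in pig mesenchymal stromal cells (MSCs) and in the extracellular vesicles (EVs) that these cells released. They were chosen by symbol alone, as every numbered gene of the HOX, TBX, MEIS, PBX, SOX, FOX and GATA families and of the sine oculis family (SIX2 and its kin), and the entry with the most reads was kept for each symbol. This gave 90 genes of 13363 distinct symbols. By family there were 29 HOX, 29 FOX, 9 SOX, 9 TBX, 6 GATA, 4 sine oculis and 4 MEIS and PBX genes. The rule used no measured value.

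The study sequenced the mRNA of MSCs and of their EVs from 3 female domestic pigs, each 3 months old, with 3 libraries per group. MSCs were grown from abdominal fat with platelet lysate and used at passage 3, and EVs were spun from the culture supernatant by ultracentrifugation. No animal or culture received a treatment. Small RNA was sequenced from the same 2 sources, again with 3 libraries each. Pigs 1, 2 and 3 are the animals in the order of the mRNA replicate numbers, and the labels give the MSC and EV libraries of a pig the same animal. The labels name no second culture per animal, so a difference between pigs cannot be told apart from a difference between cultures or pieces of fat.

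HOX genes lie in 4 clusters, HOXA to HOXD, and the order of the genes along a cluster follows the order in which they act from head to tail. Low paralog numbers are the anterior genes and high numbers the posterior genes. Stromal cells and fibroblasts in culture are known to keep a HOX pattern typical of the place they came from. MEIS and PBX proteins bind DNA together with HOX proteins, while TBX, sine oculis, SOX, FOX and GATA factors act in limb, heart, muscle, cartilage, gut and blood.

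The 6 mRNA libraries held 10429085 to 12276855 reads on genes, so a count of 0 allows up to 3 reads, or 0.232 to 0.303 CPM (reads scaled to a common library total with TMM factors). Pearson correlations of log2(CPM + 1) between libraries were lowest for MSC replicate 2, at 0.868 to 0.924. Of 10 genes listed as MSC surface markers, 9 had at least 10 reads, while THY1 was listed at 0 and ITGB1 had 1 to 3 reads per library. The summed CPM of other cell types was low: 13.7 to 40.3 for endothelial genes, 46.0 to 64.7 for leukocyte genes (most of it CD14), 3.87 to 14.8 for adipocyte genes and 0.155 to 5.46 for epithelial and mesothelial genes. The sum of smooth and skeletal muscle genes, most of it ACTG2, differed between the groups compared. This sum was 51.4, 62.4 and 45.7 CPM in MSCs and 8.44, 5.31 and 6.98 CPM in EVs. MYOCD had a log2 difference (EV minus MSC) of -2.90 (SE 1.28, adjusted p = 0.318 from edgeR), but most of its reads were in MSC replicate 1. MSC replicate 2 had 12 MYOCD reads, against 14, 0 and 14 in the EV libraries, so the groups overlapped. MYH3 was higher in EVs, by 1.39 (SE 0.51, adjusted p = 0.275 from edgeR). MYOD1, CNN1 and MYH11 had 5, 2 and 18 reads in total, and DES, ACTA1 and MYF5 were listed at 0. The part of these muscle genes in the results was not tested. The leukocyte gene PTPRC had 2 to 10 reads in each library, and the endothelial gene VWF and the adipocyte genes PLIN1 and PPARG were listed at 0. THY1 was listed at 0 as well. The study reports staining of these MSCs for the THY1 protein. A listed 0 or a low sum therefore does not show that a cell type was absent. Whether overlapping entries kept reads from being counted on these marker genes was not tested. In the bulk RNA of the MSCs, fewer cells of a type and less RNA per cell cannot be told apart. The EV libraries were made from vesicles, so their sums do not measure a mix of cells.

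Of the 90 genes, 58 had at least 10 reads over the 6 mRNA libraries, 17 had 1 to 9 reads and 15 were listed at 0. The 58 comprised 23 HOX, 18 FOX, 4 SOX, 4 TBX, 4 MEIS and PBX, 3 sine oculis and 2 GATA genes. A read was seen in all 3 MSC libraries for 53 genes, and 47 of these also had a read in all 3 EV libraries. Only 5 genes had reads in MSCs and none in EVs (FOXJ1, FOXR1, GATA1, HOXB1 and TBX19), and 3 had reads in EVs and none in MSCs (FOXB2, FOXN1 and TBX21). All 8 had under 10 reads in total, so presence in 1 source alone was not detectable at this depth. edgeR's filter on low counts kept 42 genes for testing.

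Genes listed at 0 were FOXL2, FOXO4, FOXR2, GATA4, GATA6, HOXA5, HOXA13, HOXB13, HOXC12, HOXD12, SOX2, SOX3, TBX4, TBX20 and TBX22. For 8 of these 15 another entry covered more than 90% of the span, which can leave a read without a single gene to be counted on. Some wholly covered genes were still read, such as HOXC6 with 1852 and HOXD4 with 1017 reads in total. No entry on the same strand overlapped HOXC6, HOXD4 or HOXD12, whereas the other covered genes at 0 each had such an overlap. FOXL1, wholly covered and with an overlap on its own strand, had 696 reads. A further 4 stood on a sequence named X without a prefix, and the 1170 entries that stood on X, Y or MT sequences of that kind were all at 0. The absence of these covered or X-linked genes from the cells is therefore not shown. Neither limit applied to HOXB13, HOXC12 and TBX20. The genes with 1 to 9 reads were FOXA3, FOXB2, FOXI1, FOXI2, FOXJ1, FOXN1, FOXN3, FOXR1, GATA1, GATA5, HOXB1, SIX6, SOX10, SOX21, SOX30, TBX19 and TBX21.

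The anterior HOX genes described below were read in the MSCs and EVs of all pigs, whereas most posterior HOX genes were read in pigs 1 and 2 and were nearly absent from pig 3, in its MSCs and its EVs alike. HOXA11, a gene of the distal limb and reproductive tract, had 460, 461 and 0 reads in the MSCs of pigs 1, 2 and 3 and 496, 311 and 0 reads in their EVs. HOXA10, its neighbour with roles in limb and uterus, had 236, 271 and 0 MSC reads and 216, 219 and 3 EV reads. HOXA9, known also from blood stem cells, had 224, 138 and 1 MSC reads and 267, 181 and 0 EV reads. The 4 libraries of pigs 1 and 2 thus lay far above both libraries of pig 3 for each of these HOXA genes.

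The same held for HOXC10, a gene of hindlimb and lumbar identity on another chromosome, with 206, 162 and 0 MSC reads and 233, 154 and 0 EV reads. HOXC11 was low throughout, with 3, 3 and 0 MSC reads and 6, 6 and 0 EV reads. HOXC13, a gene of hair and nails, had 14, 17 and 3 MSC reads and 14, 5 and 2 EV reads. Both libraries of pig 3 lay below the others, but the adjusted p of edgeR's test of the pig term (described below) was 0.543. HOXD9 went otherwise, with 117, 137 and 175 MSC reads and 121, 136 and 77 EV reads, so that pig 3 was the highest in MSCs and the lowest in EVs, with reads in each. HOXD10 had 1 to 7 reads in each library.

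**Figure D1:**
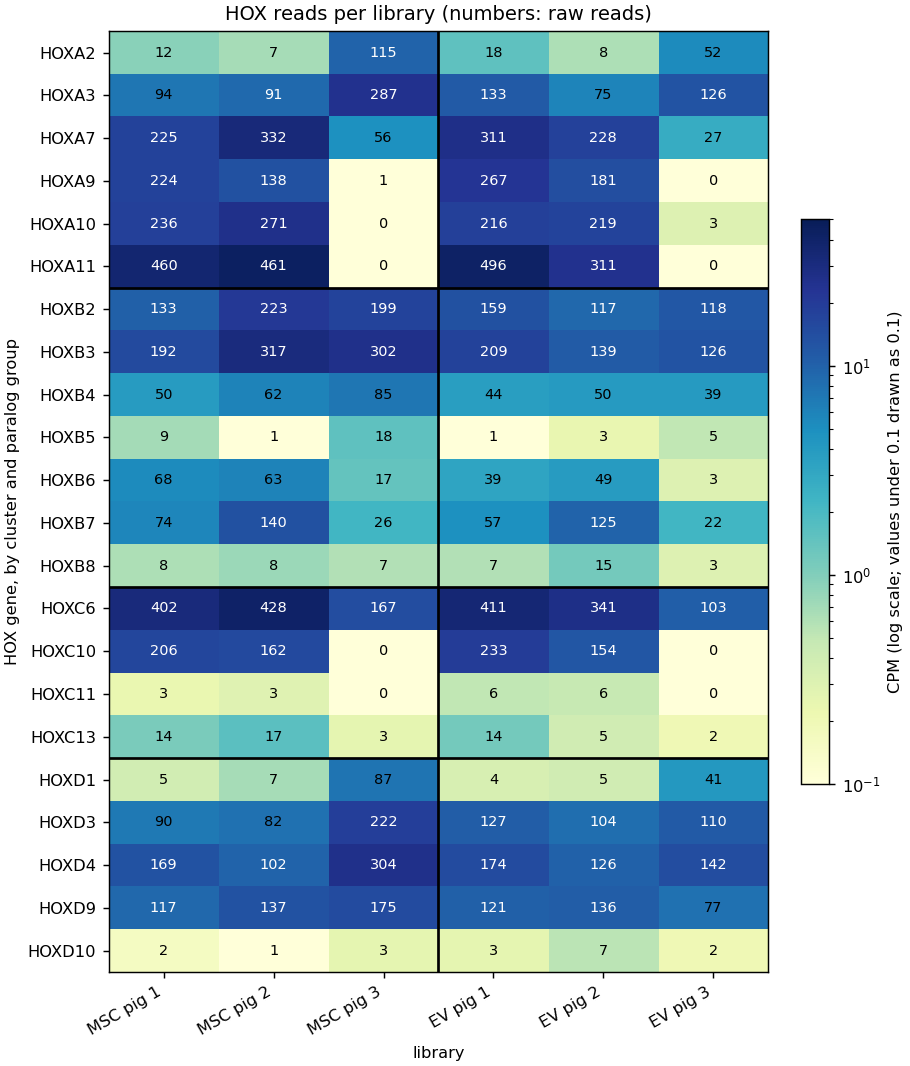
Reads of 22 of the HOX genes with at least 10 reads (rows, by cluster and paralog group) in the 6 mRNA libraries (columns). The number is the raw read count and the colour the CPM on a log scale. HOXA9, HOXA10, HOXA11 and HOXC10 hold at most 3 reads in the MSC and EV libraries of pig 3 and at least 138 in each library of pigs 1 and 2. HOXC11, HOXC13 and HOXD10 also hold at most 3 in those of pig 3 but are low in all libraries. HOXD9 holds 175 and 77 in pig 3.

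A further test, chosen after these values had been seen, asked whether a gene differed between the 3 pigs over both sources, by edgeR's quasi-likelihood F-test of the pig term with Benjamini-Hochberg adjustment over all 12392 entries. It called 8 of the 42 genes tested, or 19.0%, against 1.96% of all entries. The adjusted p was 0.00266 for HOXA11, 0.00389 for HOXA9, 0.00433 for HOXC10 and 0.00696 for HOXA10. The others called were TBX5 (0.0153), FOXM1 (0.0280), HOXA2 (0.0312) and HOXA7 (0.0399). Of the HOX genes 6 of 17 tested were called, and 4 of the 6 tested of groups 9 to 13. The test rests on 2 libraries per pig taken from the same culture, so its spread is that between MSC and EV libraries of a pig, not that between cultures.

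With 1 library left out at a time, HOXA9, HOXA10, HOXA11, HOXC10 and TBX5 were called in all 6 fits. Each of these fits holds 1 pig with a single library, which is taken to vary like the libraries of the other pigs. HOXA2 was not called without MSC replicate 1 (adjusted p = 0.0513 from edgeR), MSC replicate 2 (0.109) or MSC replicate 3 (0.291). HOXA7 was not called without MSC replicate 2 (0.0880) or EV replicate 3 (0.122), and FOXM1 was not called without MSC replicate 2 (0.0560). Without EV replicate 2 the count of genes called rose from 8 to 13, among 6.48% of all entries.

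Compared pair by pair in the same edgeR fit, 5 genes differed between pigs 3 and 1 (background 0.420%), 9 between pigs 3 and 2 (1.92%) and 1, FOXM1, between pigs 2 and 1 (1.45%). HOXA9, HOXA10, HOXA11, HOXC10 and TBX5 were in both sets with pig 3. In pooled MSC and EV reads, scaled to the libraries, HOXA11 was at least 279-fold lower in pig 3 than in pig 1 and at least 240-fold lower than in pig 2, taking 3 reads over both libraries as the limit of a count of 0. HOXC10 was at least 128-fold and at least 98.2-fold lower. For HOXA10, with 3 reads in pig 3, the ratio was 132 against pig 1 (95% counting interval 44.9 to 642) and 152 against pig 2 (51.8 to 741). HOXA9 had 1 read in pig 3, and its ratios of 430 and 297 have intervals of 76.8 to 17013 and 53.0 to 11782. These intervals cover counting error only.

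Of the middle groups, HOXA7, HOXB6, HOXB7 and HOXC6 were read in all 3 pigs and least in pig 3. HOXA7 had 225, 332 and 56 MSC reads and 311, 228 and 27 EV reads, and was lower in pig 3 than in pig 2 by a log2 difference of -2.71 (SE 0.49, adjusted p = 0.0232 from edgeR). HOXB7 had 74, 140 and 26 MSC reads and 57, 125 and 22 EV reads, a log2 difference of -2.37 (SE 0.49, adjusted p = 0.0422 from edgeR) between the same pigs. HOXB6 had 68, 63 and 17 MSC reads and 39, 49 and 3 EV reads. HOXC6, at 6.70 RPKM the HOX gene with the highest mean level per length, had 402, 428 and 167 MSC reads and 411, 341 and 103 EV reads. For each of these 4 genes both libraries of pig 3 lay below all 4 of the others, but HOXB6 (adjusted p = 0.127) and HOXC6 (0.142) did not pass edgeR's test of the pig term, nor did HOXB7 (0.0754). HOXB5, with 9, 1 and 18 MSC reads and 1, 3 and 5 EV reads, went the other way and was highest in pig 3 in both sources. HOXB8 had 3 to 15 reads per library, and neither was tested.

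Several anterior HOX genes were read more in pig 3. HOXA2, which patterns the hindbrain and branchial arches, had 12, 7 and 115 MSC reads and 18, 8 and 52 EV reads. It was higher in pig 3 than in pig 2 by a log2 difference of 3.49 (SE 0.66, adjusted p = 0.0283 from edgeR), and against pig 1 the difference of 2.58 (SE 0.62) had an adjusted p of 0.148. HOXD1 had 5, 7 and 87 MSC reads and 4, 5 and 41 EV reads, so both libraries of pig 3 stood above the rest. It did not pass the filter on low counts and was called when that filter was dropped.

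HOXA3, a gene of thymus and parathyroid development, had 94, 91 and 287 MSC reads and 133, 75 and 126 EV reads. HOXD3 had 90, 82 and 222 MSC reads and 127, 104 and 110 EV reads, and HOXD4 had 169, 102 and 304 MSC reads and 174, 126 and 142 EV reads. In these 3 genes pig 3 was the highest in MSCs, with 24.3, 18.8 and 25.8 CPM. Its EVs stood close to those of pig 1, at 12.7 against 11.2 CPM for HOXA3, 11.1 against 10.7 for HOXD3 and 14.4 against 14.7 for HOXD4, and none passed the test of the pig term (adjusted p = 0.438, 0.711 and 0.634 from edgeR). HOXB2, HOXB3 and HOXB4 had 117 to 223, 126 to 317 and 39 to 85 reads per library, with adjusted p of 0.981, 0.993 and 0.925.

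Summed by paralog group, the HOX reads of pig 3 were mostly anterior. Groups 1 to 4 took 27.0%, 29.4% and 77.3% of the HOX reads in the MSCs of pigs 1, 2 and 3, and 28.7%, 26.3% and 75.5% in their EVs. Groups 9 to 13 took 45.0%, 38.9% and 8.75% in MSCs and 44.3%, 42.2% and 8.34% in EVs. The exact binomial 95% intervals of the 2 pig 3 libraries were 7.57% to 10.0% and 6.71% to 10.2%, and those of the other 4 began at 37.1% or above. These intervals cover the counting error of reads only, not the spread between cultures. HOXD9 held nearly all of what remained: without it, groups 9 to 13 had 1145, 1053 and 7 MSC reads and 1235, 883 and 7 EV reads. On the CPM scale groups 1 to 4 had 58.6, 86.0 and 136 CPM in MSCs and 74.0, 49.6 and 76.9 CPM in EVs, so the anterior level of pig 3 EVs was near that of pig 1 EVs, while groups 9 to 13 had 15.4 and 8.5 CPM in pig 3 against 79.6 to 114 CPM in the other libraries. The total of all HOX reads differed less, at 217, 293 and 176 CPM in MSCs and 258, 189 and 102 CPM in EVs.

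**Figure D2:**
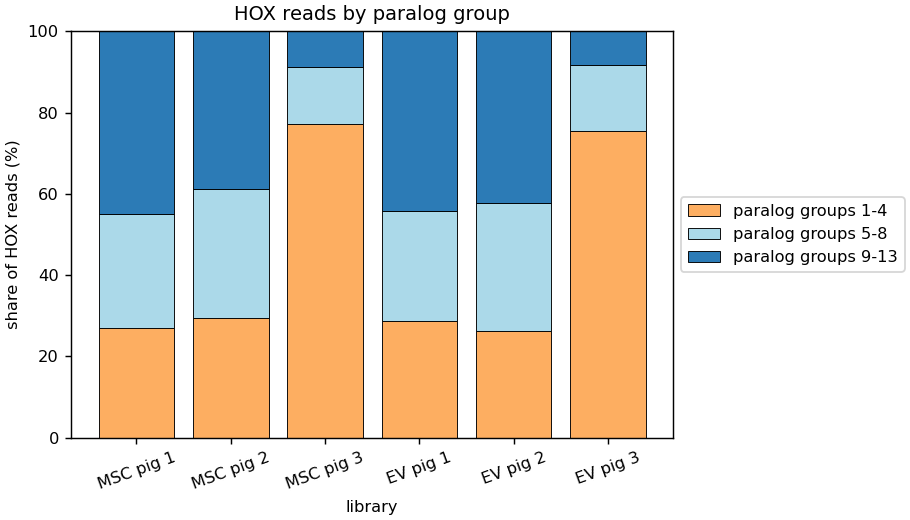
Share of all HOX reads (percent, vertical axis) in paralog groups 1 to 4, 5 to 8 and 9 to 13 in each mRNA library. The bars of pig 3 are 77.3% and 75.5% anterior, and those of pigs 1 and 2 are 26.3% to 29.4% anterior.

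The EVs of pig 3 carried the HOX pattern of its MSCs, whereas pigs 1 and 2 shared a pattern. EV replicate 2 was no more like the MSCs of its own pig (Spearman correlation 0.934) than like those of pig 1 (0.944). Over the 23 HOX genes with at least 10 reads, Spearman correlations between the MSC and EV libraries of a pig were 0.934 to 0.978, those between libraries of pigs 1 and 2 were 0.941 to 0.955, and those between pig 3 and the others were 0.0508 to 0.182. Over the 35 other genes with at least 10 reads the range between pig 3 and the others was 0.863 to 0.934. These correlations are across genes, which are not independent replicates, and libraries of a pig share a culture.

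All 29658 entries were then searched for those with at least 100 reads in every library of the other pigs and at most 3 in both libraries of a pig. The limits were set after the HOX values had been seen, so that HOXA9, HOXA10, HOXA11 and HOXC10 had to meet them, and the same limits were applied to each pig. Pig 3 had 5 such entries, pig 2 had 1 (the collagen gene COL22A1) and pig 1 had 0. The 5 of pig 3 were HOXA9, HOXA10, HOXA11, HOXC10 and an entry without a symbol, ENSSSCG00000016700, with 457, 382 and 2 MSC reads and 706, 411 and 0 EV reads. In the files' build, susScr3, the HOXA entries lie on chromosome 18, the HOXB entries span chr12:24742221-24905884, the HOXC entries chr5:19519313-19696302 and the HOXD entries chr15:91368386-91457433. The unnamed entry lies inside the HOXA span at chr18:50041645-50043875, between HOXA10 and HOXA7. The entry matched to HOXA9 lies apart at chr18:49840681-49842577, before HOXA11, whereas RefSeq's annotation of another assembly, Sscrofa11.1, places HOXA9 between HOXA10 and HOXA7. No name is given to the unnamed entry here. With at least 50 reads in place of 100, pig 3 gained SDSL and the unnamed ENSSSCG00000016699, which lies 6543 bases from the HOXA9 entry and had 85, 91 and 0 MSC reads and 68, 114 and 0 EV reads.

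The 4 spans hold 16 entries without a symbol, of which 8 were tested and 3 differed between pigs, all in HOXA. Besides ENSSSCG00000016700 (adjusted p = 0.00266 from edgeR's test of the pig term) these were ENSSSCG00000016702, with 164, 212 and 25 MSC reads and 398, 309 and 11 EV reads, and ENSSSCG00000029666, with 118, 30 and 3 MSC reads and 30, 10 and 0 EV reads. Both were lowest in pig 3. ENSSSCG00000029666, at chr18:50006832-50011480, covers the whole of the HOXA13 entry at chr18:50007054-50008334, which was listed at 0. Whether its reads came from HOXA13 was not tested. The entry LOC100620451, which overlaps HOXA10, had 10, 15 and 0 MSC reads and 15, 17 and 0 EV reads. HOX clusters also hold antisense transcripts, and whether reads were counted by strand is not given in the sources used here, so sense and antisense reads cannot be told apart. The HOXD entries lie within the oversized span of another gene's entry.

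Among the T-box genes, TBX3 was the most abundant of all 90 genes per length and in reads. It had 9.62, 14.9 and 17.5 RPKM in MSCs and 13.8, 11.9 and 21.9 RPKM in EVs and took 22.0% of the 84335 reads of the whole set. TBX5, which specifies the forelimb and the heart, had 255, 351 and 31 MSC reads and 257, 168 and 9 EV reads. Pig 3 lay below the others in both sources, by a log2 difference of -3.73 (SE 0.56, adjusted p = 0.0236 from edgeR) from pig 1 and -3.70 (SE 0.55, adjusted p = 0.0113) from pig 2. TBX2, close kin of TBX3, had 565, 773 and 405 MSC reads and 708, 592 and 177 EV reads, with an adjusted p of 0.371 for the pig term from edgeR. TBX18, a marker of epicardium and of mural cells, had 209, 183 and 493 MSC reads and 219, 297 and 450 EV reads, above the others in pig 3 but with an adjusted p of 0.140.

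**Figure D3:**
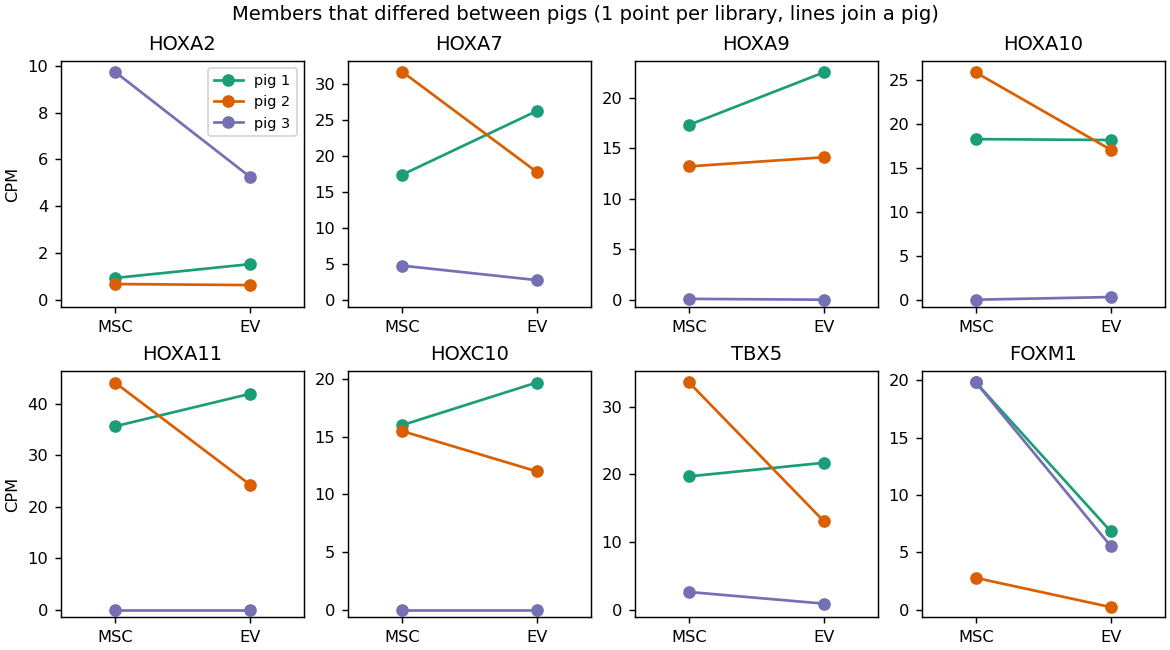
CPM (linear vertical axes, scaled by TMM) of the 8 genes called by the test between pigs, with 1 point per library and a line from the MSC to the EV library of a pig. Pig 3 is at or near 0 for HOXA9, HOXA10, HOXA11 and HOXC10, low for HOXA7 and TBX5 and high for HOXA2, while FOXM1 is low in pig 2.

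The forkhead genes FOXK1, FOXK2, FOXJ3 and FOXP4 followed TBX3 among the genes outside the HOX clusters, FOXK1 with 8.69 to 21.3 RPKM per library and the others with mean levels of 7.87, 5.44 and 5.42 RPKM. FOXK1 and FOXK2 are regulators of metabolism and autophagy. Next came TBX2 (3.56 RPKM), the HOX cofactor PBX2 (2.76), FOXL1 (2.65), TBX5 (2.65) and FOXP1 (2.33). FOXM1, which drives the genes of mitosis, differed between pigs in another way than the HOX genes, with 256, 29 and 234 MSC reads and 81, 3 and 55 EV reads. It was lower in pig 2 than in pig 1 by a log2 difference of -3.50 (SE 0.59, adjusted p = 0.0201 from edgeR).

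**Figure D4:**
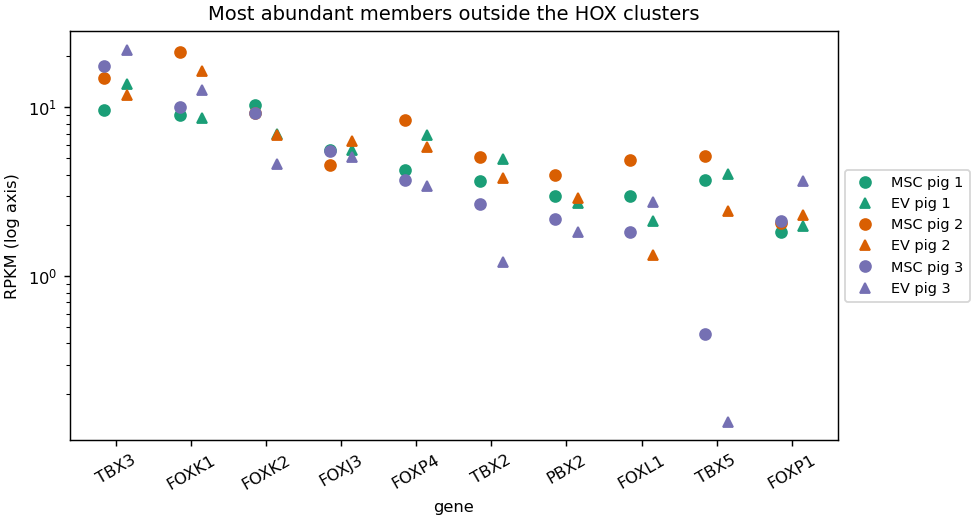
RPKM (log axis) of the 10 genes outside the HOX clusters with the highest mean RPKM, with circles for MSC and triangles for EV libraries and a colour per pig. TBX3 lies between 9.62 and 21.9 RPKM, and TBX5 falls to 0.456 and 0.138 RPKM in pig 3.

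Genes with few reads were also uneven. SOX11, a neural and embryonic factor, had 12, 19 and 13 MSC reads and 8, 205 and 9 EV reads, so its high value is that of EV replicate 2 alone. FOXA2, an endoderm factor, had 8 and 7 reads in the MSCs and EVs of pig 3 and 0 in the other 4 libraries. SIX2 had 1, 4 and 20 MSC reads and 0, 0 and 9 EV reads. GATA2 and GATA3, the GATA genes with at least 10 reads, had 17 and 19 reads in total.

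The comparison the study was designed for is that of EVs with MSCs. In edgeR's quasi-likelihood test 0 of the 42 genes passed an adjusted p of 0.05, beside 0% of all 12392 entries. The lowest adjusted p among them was 0.247, for FOXK2. An unadjusted p under 0.05 was found for 4 genes (FOXK2, FOXO3, MEIS2 and PBX4), beside 1978 of the 12392 entries. DESeq2 called 0 of these genes and 3.83% of all entries. Once the pig entered edgeR as a block, 1.10% of all entries were called and again 0 of the 42 genes. Of these genes 6 had an unadjusted p under 0.05, beside 2431 of the 12392 entries. The lowest adjusted p was then 0.0620, for FOXM1.

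The study's methods took a fold change over 2 with a p under 0.05 from a Student t-test. With the same thresholds put on edgeR's unadjusted p, 2 genes were higher in EVs (background 5.55%) and 1 was lower (3.57%). FOXO3, a stress response and longevity factor, had 32, 9 and 13 MSC reads and 33, 55 and 51 EV reads. Another entry covered 99.0% of its span, so some of its reads may not have been counted. Every EV library lay above every MSC library, with a log2 fold change of 1.44 (SE 0.52, adjusted p = 0.275 from edgeR). MEIS2, a partner of HOX proteins, had 6, 4 and 15 MSC reads and 19, 24 and 20 EV reads, again without overlap, with a log2 fold change of 1.36 (SE 0.56, adjusted p = 0.301). PBX4, another HOX partner, had 140, 31 and 101 MSC reads and 37, 20 and 28 EV reads. It was lower in EVs in all 3 pigs, although the groups overlapped, with a log2 fold change of -1.58 (SE 0.55, adjusted p = 0.265).

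None of these 3 met the thresholds in every fit with a library left out. FOXO3 had unadjusted p of 0.0627, 0.0852, 0.0582 and 0.0797 in edgeR without MSC replicate 2, MSC replicate 3, EV replicate 2 and EV replicate 3. MEIS2 had 0.141, 0.105, 0.0763, 0.0919 and 0.101 without MSC replicates 1 and 2 and EV replicates 1, 2 and 3. PBX4 had 0.0837, 0.0583 and 0.0705 without MSC replicate 1, MSC replicate 3 and EV replicate 2.

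In the blocked fit the same thresholds took 3 genes as higher (background 8.01%) and 2 as lower (5.17%). SOX9, the master factor of cartilage, was added to those higher, with 20, 63 and 87 MSC reads and 39, 103 and 333 EV reads. The EV library of each pig was above its MSC library, with a log2 fold change of 1.25 in the blocked fit (SE 0.44, adjusted p = 0.177 from edgeR). FOXM1 was added to those lower, below the MSC library in each pig, with a log2 fold change of -2.05 (SE 0.45, adjusted p = 0.0620). Without the block their log2 fold changes were 1.59 (SE 0.89) and -1.75 (SE 1.05). Without EV replicate 3 the log2 fold change of SOX9 in the unblocked fit fell to 0.19. That fit kept MSC replicate 3, the highest MSC library for SOX9, and the blocked fit was not repeated without EV replicate 3.

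The 42 genes had a median log2 fold change of -0.30, with 13 higher and 29 lower in EVs, against -0.02 over all entries. The HOX genes alone had a median of -0.34, with 15 of 17 lower, and a range of -0.78 (HOXB3) to 0.26 (HOXA9). Among them 0 had an unadjusted p under 0.05 in edgeR, beside 1978 of the 12392 entries. Single libraries moved these values: without MSC replicate 2 the median of the genes was 0.04 and 11 of 19 HOX genes tested were lower (HOX median -0.24), and without EV replicate 3 the median of the genes was -0.24 and 10 of 18 HOX genes were lower (HOX median -0.25). By pig, total HOX CPM in EVs was 1.19, 0.645 and 0.580 times that in MSCs for pigs 1, 2 and 3, so the direction was not shared by all pigs. Genes with every EV library above every MSC library were FOXO1, FOXO3, MEIS2 and PBX3, which is 4 of 42 beside a background of 14.3%. FOXC2 and FOXK2 lay wholly below, 2 of 42 beside 13.6%.

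**Figure D5:**
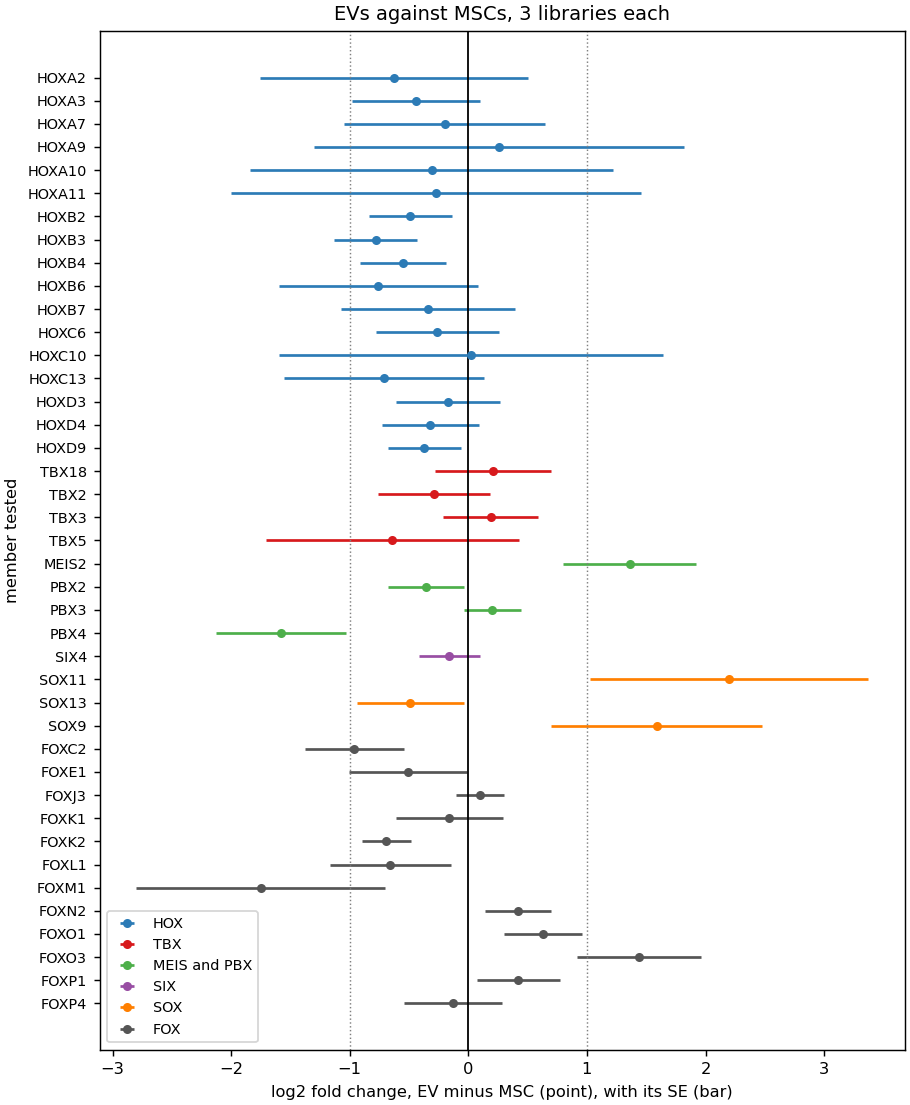
Log2 fold change of EVs against MSCs (points) with its SE (bars) for 41 of the genes tested, by family, from edgeR with 3 libraries per group. Dotted lines mark a fold change of 2. Of the 17 HOX genes 15 lie left of 0, between -0.78 and 0.26 in all, and the SE is widest for the HOX genes that pig 3 lacks.

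Retinoic acid is a textbook inducer of HOX genes, and the genes of its signalling were a listed group. None of the 11 tested was called in EVs against MSCs by edgeR after adjustment, and DESeq2 called 1. An unadjusted p under 0.05 in edgeR was seen for 3, beside 1978 of the 12392 entries. Between pigs 4 differed, beside 1.96% of all entries. STRA6, the retinol uptake receptor, had 120, 58 and 1010 MSC reads and 96, 38 and 741 EV reads, highest in both libraries of pig 3 (adjusted p = 0.00266 from edgeR's test of the pig term). CRABP2, which carries retinoic acid to the nucleus, had 496, 244 and 1063 MSC reads and 732, 263 and 1013 EV reads (adjusted p = 0.0425). DHRS3, which reduces retinal, and ALDH1A1, which oxidises it, were highest in pig 2, with 711 and 121 reads in its MSCs and 723 and 391 in its EVs (adjusted p = 0.00433 and 0.0455). The most abundant of the list were CYP26B1, RARG and RARA, at 48.8, 21.7 and 18.0 RPKM. NRIP1, a corepressor, met the study's thresholds as higher in EVs by a log2 difference of 2.03 (SE 0.61, adjusted p = 0.243).

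Polycomb proteins keep HOX genes silent and Trithorax proteins keep them active. Of 19 such genes tested, 0 were called by edgeR in EVs against MSCs after adjustment (7 at an unadjusted p under 0.05, and 3 by DESeq2) and 0 between pigs (1 at an unadjusted p under 0.05, and 0 by DESeq2). Over the 12392 entries, 1978 had an unadjusted p under 0.05 in edgeR between EVs and MSCs, and 1406 between pigs. By the study's thresholds 4 of the 19 genes were higher in EVs and 0 lower, beside 5.55% and 3.57% of all entries. These were KMT2C, KMT2A, PHC3 and JARID2, with log2 fold changes of 1.83 (SE 0.45), 1.41 (SE 0.40), 1.41 (SE 0.43) and 1.25 (SE 0.24), and adjusted p of 0.219, 0.231, 0.243 and 0.206 from edgeR. JARID2 had 278, 277 and 232 MSC reads and 548, 745 and 556 EV reads, without overlap. The list's median log2 fold change was 0.04, and PHC2, its most abundant gene, was at -0.18.

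Other patterning genes with homeobox or bHLH domains were a further listed group. Of 16 tested, 0 were called between pigs by edgeR after adjustment (5 at an unadjusted p under 0.05, and 3 by DESeq2) and 0 between EVs and MSCs (2 at an unadjusted p under 0.05, and 0 by DESeq2). Over the 12392 entries, these unadjusted counts in edgeR were 1406 between pigs and 1978 between EVs and MSCs. PRRX2, TWIST2 and OSR2, known from limb and connective tissue mesenchyme, were the most abundant, at 74.1, 45.0 and 17.4 RPKM. PRRX2 had 3226, 8366 and 3526 MSC reads and 2947, 2753 and 2694 EV reads. Of HOX cofactors outside the families above, TGIF1 had 111 to 236 reads per library and PKNOX2 3 to 20, and 0 of these 2 were called between EVs and MSCs or between pigs by edgeR or DESeq2, with 0 and 1 at an unadjusted p under 0.05.

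HOX clusters also hold miRNA genes: miR-10a, miR-10b, miR-196a, miR-196b and miR-615. In small RNA, 4 of their 8 mature names passed the filter on low counts. In EVs against MSCs edgeR called 0 of them (0% of the 220 tested). Their lowest adjusted p from edgeR was 0.0813, for miR-10a-3p. DESeq2 also called 0 of them, while it called 28 miRNAs of all. The EV libraries held 656888, 19454 and 18374 counts for replicates 1, 2 and 3, so a count of 0 allows up to 4.57, 154 and 163 CPM there, and the listed 0 of miR-10a-3p in all EV libraries says little. miR-10b, the most abundant, had 19217, 17332 and 5472 CPM in MSCs and 44227, 50865 and 1116 CPM in EVs. miR-10a-5p had 2261, 5157 and 2294 CPM in MSCs and 4345, 1671 and 3293 in EVs. miR-615 had 546, 135 and 174 CPM in MSCs and 0, 0 and 762 in EVs.

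The small RNA replicate 3 stood apart for the miR-196 family, which is encoded beside posterior HOX genes. Its MSC and EV titles carry a tag that the other titles lack. The TMM factors of these libraries were 0.306 and 3.24, against 0.813 to 1.18 in the others. A difference of this pig thus cannot be told apart from a difference of these libraries. The names miR-196b and miR-196b-5p are listed with the same counts. miR-196a had 0.190, 0.340 and 15.2 CPM in MSCs and 0.760, 0 and 272 CPM in EVs, the last from 5 counts. miR-196b had 0.10, 0.600 and 7.46 CPM in MSCs and 0, 0 and 81.6 CPM in EVs, the last from 1.5 counts. The pig label of small RNA replicate 3 is that of mRNA pig 3, but the sample titles number the pigs differently in the assays, so whether these are the same animals is uncertain and no mRNA value is set against a miRNA value here.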

How the data were processed

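Per the file headers, the authors deposited for each mRNA library raw read counts per gene entry and RPKM. The submitters' processing notes name the build susScr3, TopHat and HTSeq. A stranded kit is named in the labels and another kit in the study's methods, and whether counting used strand is not given in the sources used here. For small RNA the authors deposited expected counts, with reads of several precursors shared in fractions, and CPM scaled to the library total; expected counts were rounded to whole numbers for testing. For mRNA, 3 entries shifted by a column were left out. Symbols came from the table (4336 entries) or from the Ensembl identifier (11804 of 25322 matched).

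EVs were compared with MSCs in R 4.3.3 by edgeR 4.0.16 (TMM, filterByExpr, quasi-likelihood test, Benjamini-Hochberg adjustment over all entries), without the pig as the main fit and with it as a block. The test between pigs was added after the data had been seen. Alternatives were RLE, upper quartile and no scaling factors, no filter, DESeq2 1.42.0, limma 3.58.1 on log2(RPKM + 1) and log2(RPKM + 0.1), entries summed by symbol, a length trend removed, and each library left out. The fits were tested on simulated data. CPM in the text are from TMM-scaled totals for mRNA and the authors' own for small RNA, and RPKM are the authors' own.

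The genes, lists and tests were chosen with earlier results of these data known. A few genes are not reported here. Otherwise named were every HOX gene with at least 10 reads, the 10 other genes with the highest mean RPKM, those past the study's thresholds or an adjusted p of 0.05 with or without the block, and, of each list, up to 3 of the highest RPKM and those past the same thresholds. TBX18, SOX11, FOXA2, SIX2, GATA2, GATA3, FOXC2, FOXO1, PBX3 and the genes called between pigs were otherwise named after their values were seen. Libraries of the same pig deviated together from the group means (r = 0.226, 0.369 and 0.394; different pigs -0.369 to -0.0291), so the pig labels pair the mRNA libraries; small RNA gave -0.220, -0.0129 and -0.120. Nothing in the labels names separate cultures within a pig, so p-values measure the spread between these libraries.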

Additional observations from a re-analysis of the deposited data

How the results depend on the processing

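The 0 genes called between EVs and MSCs after adjustment stayed at 0 under all alternatives run. The count higher by the study's thresholds, 2, was 1 with library totals alone, without the filter and with DESeq2, and 0 with limma on log2(RPKM + 1). The count lower, 1, was 2 with the replicate block, which paired libraries by pig and took the count higher to 3, and 0 with limma on log2(RPKM + 1). With a library left out these counts ran from 0 to 3 higher and from 0 to 2 lower. The median log2 fold change was -0.27 with the replicate block, -0.10 with limma on log2(RPKM + 1) and -0.27 without the length trend, and ran from -0.43 to 0.04 with a library left out, the only change of sign, without MSC replicate 2. The HOX median ran from -0.53 to -0.24 there. The count of genes that differ between pigs, 8, was 13 without the filter and 14 with DESeq2, each including the same 8, and ran from 7 to 13 with a library left out. DESeq2 called 5.36% of all entries there and the fit without the filter 4.11%. Entries missing from pig 3, 5 in number, were 7 at the lower minimum of 50 reads and 5 at a maximum of 10. For HOX-cluster miRNAs the count of 0 became 3 (miR-10a-3p, miR-10b and miR-615) without EV replicate 3, when 116 miRNAs of all were called. Among the patterning genes and HOX-cluster miRNAs the replicate block changed no call other than those of SOX9 and FOXM1. The cause of these changes was not tested. In EVs, small RNA depth limits what can be seen, and 2 libraries per pig limit the test between pigs. With 3 libraries against 3, an exact permutation test of a single gene cannot go below 0.1.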

Other observations

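Outside the families described above, a few entries were also read in some pigs and nearly absent from others, in MSCs and EVs alike. VAX1, a homeobox gene of the eye and forebrain, had 2, 3 and 449 reads in the MSCs of pigs 1, 2 and 3 and 1, 1 and 51 in their EVs. COL22A1, a collagen of tissue junctions, had 1756, 1 and 140 MSC reads and 1037, 3 and 2632 EV reads. RSAD2 and DDX60, both interferon-induced antiviral genes, were read in pig 1, RSAD2 with 297, 0 and 0 MSC reads and 136, 1 and 4 EV reads, and DDX60 with 193, 8 and 8 MSC reads and 111, 4 and 6 EV reads. MEOX2, a homeobox gene of somites and vessels, had 6, 0 and 36 MSC reads and 4, 1 and 32 EV reads. These genes were named after their values had been seen and were not tested further.

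ACTG2, a smooth muscle actin, had 449, 630 and 497 MSC reads and 58, 40 and 43 EV reads, a log2 difference (EV minus MSC) of -3.47 (SE 0.34). Its adjusted p was 0.129 in edgeR's quasi-likelihood test and 0.0116 with the pig as a block. PECAM1, an endothelial adhesion gene, had 215, 111 and 114 MSC reads and 78, 20 and 31 EV reads, a log2 difference (EV minus MSC) of -1.71 (SE 0.54, adjusted p = 0.249 from edgeR). MYH3, an embryonic myosin, had 10, 8 and 4 MSC reads and 24, 22 and 12 EV reads, a log2 difference of 1.39 (SE 0.51, adjusted p = 0.275 from edgeR).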
